A study of Mus musculus with 96 samples.

Results

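The Hox, Lhx, Pax, sine oculis (such as Six4 and Six5), Dlx and Irx families of developmental homeobox transcription factors were followed through the adult mouse cerebellum. Members were taken by symbol as every protein-coding gene of the count table whose symbol has one of the family stems and a number, which gave 73 of the 39179 genes. They were 38 Hox, 9 Pax, 8 Lhx, 6 sine oculis, 6 Dlx and 6 Irx genes, and 13 further symbols of these names, mostly antisense transcripts, were not protein coding and were left out. The label holds for most but not all of them, since Pax1 and Pax9 carry a paired domain without a homeodomain.

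RNA came from cerebellum of C57BL/6 mice that carried 1 knock-in Htt allele, or of wild types. Htt is the gene whose CAG repeat expansion causes Huntington disease, and a heterozygous knock-in keeps 1 normal allele beside the allele with the repeat at the endogenous locus. Alleles carried 20, 50, 92 or 140 CAG (Q20, Q50, Q92, Q140), and wild types were housed with Q20 mice or with Q50 mice. The 96 libraries formed 12 groups of 8, with 4 females and 4 males in each, 6 groups at 6 months and 6 at 10 months. Where nothing in the labels ties libraries to separate animals, p-values measure the spread between these libraries, which may be technical.

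Homeobox proteins bind DNA through a homeodomain and set the identity of body regions and neuron types in the embryo. Hox genes sit in 4 clusters whose order along the chromosome matches the order of their expression domains from hindbrain to tail. The cerebellum arises in front of the Hox domains, from the most anterior hindbrain, whereas the medulla and spinal cord behind it keep Hox expression in adult neurons. Pax6 marks cerebellar granule cells and their precursors, and Lhx1 and Lhx5 are LIM homeobox factors of Purkinje cells. Dlx factors are best known from forebrain inhibitory neurons, sine oculis factors from placodes, muscle and eye, and Irx factors from patterning of the neural plate.

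Library totals lay between 29957797 and 39477325 estimated counts. Granule neuron markers were high in every library, with 8 genes summing to between 2771 and 6803 CPM, counts scaled to library size, so the labelled tissue held. The markers of other tissues varied more: 19 brainstem neuron genes summed to between 5.30 and 67.2 CPM with a median of 9.24, and 15 choroid plexus genes to between 159 and 6251 CPM with a median of 927. In 4 of the 19 brainstem genes (Chat, Isl1, Phox2a and Ucn) more than 48 libraries were at 0. In bulk tissue, fewer cells of a type and less RNA per cell cannot be told apart. Htt, the targeted gene, is counted from both alleles, so its level does not check the genotype labels, and its log2 difference between Q140 and Q20 was −0.00 ± 0.11 (SE) at 6 months and −0.22 ± 0.07 at 10 months (edgeR adjusted p = 0.986 and 0.114).

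Most members were silent or nearly so. No count was found in any of the 96 libraries for 9 members, all of them Hox genes: Hoxa11, Hoxa13, Hoxb1, Hoxc10, Hoxc11, Hoxc12, Hoxc13, Hoxd10 and Hoxd12. A count of 0 allows up to 3 counts, which is 0.0760 to 0.1 CPM in a library, for counting error only. A further 42 members had counts but too few for a test, and 22 passed the low-count filter of edgeR, the same 22 at both ages. Among families, 3 of 38 Hox genes passed, against 6 of 8 Lhx, 5 of 6 Irx, 3 of 9 Pax, 3 of 6 sine oculis and 2 of 6 Dlx genes. At the edge of the filter, Lhx2 passed with 611 counts in all and 19 libraries at 10 counts or more, while Hoxb5 did not pass with 1345 counts, since only 7 libraries reached 10.

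**Figure D1:**
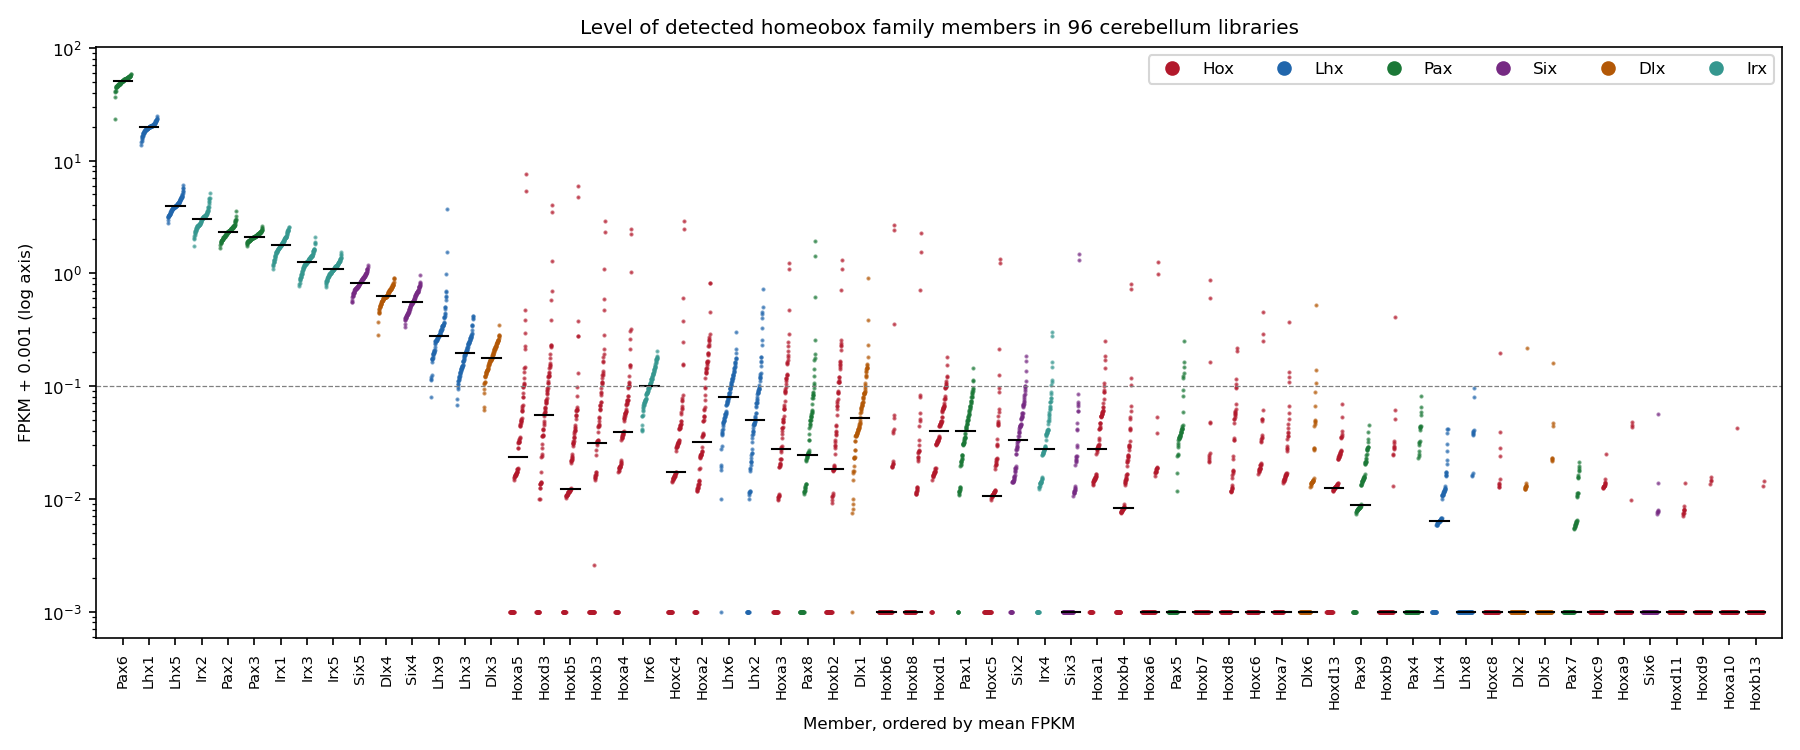
FPKM, fragments scaled to transcript length and to library size, of 63 of the 64 detected members in the 96 libraries, on a log axis after adding 0.001. Each point is 1 library, black bars are medians, the dashed line is 0.1 FPKM, and 9 members have a mean of at least 1 FPKM while several Hox genes lie near 0 except in 2 or 3 libraries.

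Levels between genes are compared here in FPKM, which accounts for transcript length. Pax6 (GRCm38 chromosome 2, 105668900 to 105697364) was the highest member, with a lowest library of 23.5, a median of 51.2 and a highest of 58.7 FPKM. Lhx1 (chromosome 11, 84518284 to 84525535) followed with 13.8, 19.8 and 24.6 FPKM. The ranges of Pax6 and Lhx1 met in 1 library, Q92 female 2 at 10 months, which held the lowest Pax6 value. Lhx5 (chromosome 5, 120431699 to 120441223) came next, from 2.82 to 6.06 FPKM with a median of 3.95, below every Lhx1 value.

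Irx2 (chromosome 13) had a median of 3.01 FPKM, Pax2, a marker of inhibitory interneuron precursors, 2.34, and Pax3, a factor of the dorsal neural tube and neural crest, 2.11. These 3 overlapped widely, from 1.74 to 5.10 for Irx2, 1.66 to 3.55 for Pax2 and 1.76 to 2.62 for Pax3. Irx1, Irx3 and Irx5 had medians of 1.78, 1.26 and 1.08 FPKM, which completes the 9 members with a mean of at least 1. The remaining members of the Irx family were lower: Irx6 had a median of 0.0987 FPKM and Irx4, a heart ventricle factor, 0.0269.

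All sine oculis, Dlx and Hox genes, and the Lhx genes other than Lhx1 and Lhx5, had means under 1 FPKM. Six5, which lies beside the myotonic dystrophy kinase gene, had a median of 0.818 FPKM and Six4 of 0.551. Dlx4 stood at 0.622 and Dlx3 at 0.175, whereas Dlx1, of forebrain inhibitory neurons, had a median of 0.0507 FPKM and Dlx2, Dlx5 and Dlx6 a median of 0. Lhx9 had a median of 0.280, Lhx3, of motor neurons and pituitary, 0.194, and Lhx6, of inhibitory neurons that arise in the ventral forebrain, 0.0795. In the Hox family the highest means were those of Hoxa5 at 0.181, Hoxd3 at 0.167 and Hoxb5 at 0.142 FPKM, but their medians were 0.0224, 0.0542 and 0.0112. In all, 51 members had a mean under 0.1 FPKM.

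Exonic bases were shared with another annotated gene in 29 members, and whether counting used strand is not given in the sources used here, so their counts are uncertain. The share was 62.8% for Hoxd3, 52.9% for Hoxb3, 27.3% for Hoxb2, 27.1% for Hoxa3 and 15% for Hoxa2, and 0% for Pax6, Lhx1, Six5 and Hoxa5. Some of it lies on the same strand, where strand-aware counting could not separate the genes. Hoxd3 shares bases this way with Hoxd4 and Gm28230, and Hoxa2 and Hoxa3 with Gm28308. Hoxd4 is not among the members, so counts given for Hoxd3 may include its reads.

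Promoters are shown for 5 members that stand for the range of levels: Pax6 and Lhx1, the highest; Hoxa2 and Hoxd3, tested Hox genes; and Hoxa11, at 0 in every library. Each is the RefSeq window from 250 bases before to 50 after the gene's start (GRCm38.p6), 5′ to 3′ on the gene's strand, with CG dinucleotides in capitals. They lie at chr2:105668646-105668945 (+) for Pax6, chr11:84525485-84525784 (−) for Lhx1, chr6:52164782-52165081 (−) for Hoxa2, chr2:74711743-74712042 (+) for Hoxd3 and chr6:52245761-52246060 (−) for Hoxa11.
Pax6: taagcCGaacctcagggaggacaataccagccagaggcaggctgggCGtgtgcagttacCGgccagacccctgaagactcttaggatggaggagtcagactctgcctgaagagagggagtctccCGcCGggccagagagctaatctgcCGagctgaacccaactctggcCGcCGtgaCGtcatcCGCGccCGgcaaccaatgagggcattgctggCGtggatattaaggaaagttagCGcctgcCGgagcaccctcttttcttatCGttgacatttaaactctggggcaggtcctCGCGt
Lhx1: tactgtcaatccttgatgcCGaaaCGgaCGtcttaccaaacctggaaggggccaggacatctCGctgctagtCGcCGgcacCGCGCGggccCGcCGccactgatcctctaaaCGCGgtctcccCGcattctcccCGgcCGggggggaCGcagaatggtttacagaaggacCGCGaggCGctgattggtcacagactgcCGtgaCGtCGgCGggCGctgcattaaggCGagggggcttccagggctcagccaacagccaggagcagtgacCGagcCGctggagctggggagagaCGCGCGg
Hoxa2: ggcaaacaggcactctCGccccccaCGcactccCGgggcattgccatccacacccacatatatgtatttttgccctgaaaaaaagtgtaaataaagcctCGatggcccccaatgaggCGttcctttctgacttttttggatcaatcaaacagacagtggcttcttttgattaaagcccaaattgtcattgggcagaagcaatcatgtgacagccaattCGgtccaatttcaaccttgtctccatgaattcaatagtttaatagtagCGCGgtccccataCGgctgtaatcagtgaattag
Hoxd3: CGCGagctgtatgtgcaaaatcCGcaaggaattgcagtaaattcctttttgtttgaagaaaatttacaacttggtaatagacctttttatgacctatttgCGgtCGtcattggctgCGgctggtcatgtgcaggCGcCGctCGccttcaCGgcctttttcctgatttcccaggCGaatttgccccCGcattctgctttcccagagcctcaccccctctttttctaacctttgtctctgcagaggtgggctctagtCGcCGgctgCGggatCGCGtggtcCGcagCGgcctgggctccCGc
Hoxa11: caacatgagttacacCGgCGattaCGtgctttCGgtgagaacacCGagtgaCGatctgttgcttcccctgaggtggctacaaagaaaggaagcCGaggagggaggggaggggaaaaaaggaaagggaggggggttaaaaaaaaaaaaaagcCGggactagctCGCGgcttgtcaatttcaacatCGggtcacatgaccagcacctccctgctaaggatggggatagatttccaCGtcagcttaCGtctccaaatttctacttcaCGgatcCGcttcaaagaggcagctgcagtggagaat

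The silent Hoxa11 promoter held 15 CG dinucleotides and the Pax6 promoter 18. The windows of Lhx1, Hoxd3 and Hoxa2 held 31, 20 and 9. The ratio of observed to expected CG was 0.70 for Pax6, 0.96 for Lhx1, 0.59 for Hoxa2, 0.92 for Hoxd3 and 0.79 for Hoxa11. Promoters were listed for 45 of the 73 members, and their median ratio was 0.679, against 0.390 over 27025 genes. Split by expression, it was 0.754 in 5 members at 0, 0.684 in 26 detected but untested members and 0.674 in 14 tested members. The letters TGATNNAT, searched on both strands as a form of the site bound by Hox proteins with Pbx partners, occurred in 5 of 55 member promoters (9.09%; Hoxa2, Hoxb1, Hoxb8, Hoxd11 and Lhx4) and in 8.85% of all 32851 promoters. A match is a run of letters, not a shown binding site.

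Hox counts were few and were gathered in a few libraries. Over all libraries the 38 Hox genes held 10096 counts, with 5 in the lowest library and 30 in the median library. The library of wild-type female 1 of the Q20 cages at 6 months held 2958 and that of Q50 female 2 at 10 months 2367, together 52.7% of the total. The third, Q92 female 2 at 10 months, held 559, and 8 libraries exceeded 100. Of the 29 Hox genes with any count, 18 had these first 2 libraries as their 2 highest.

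**Figure D2:**
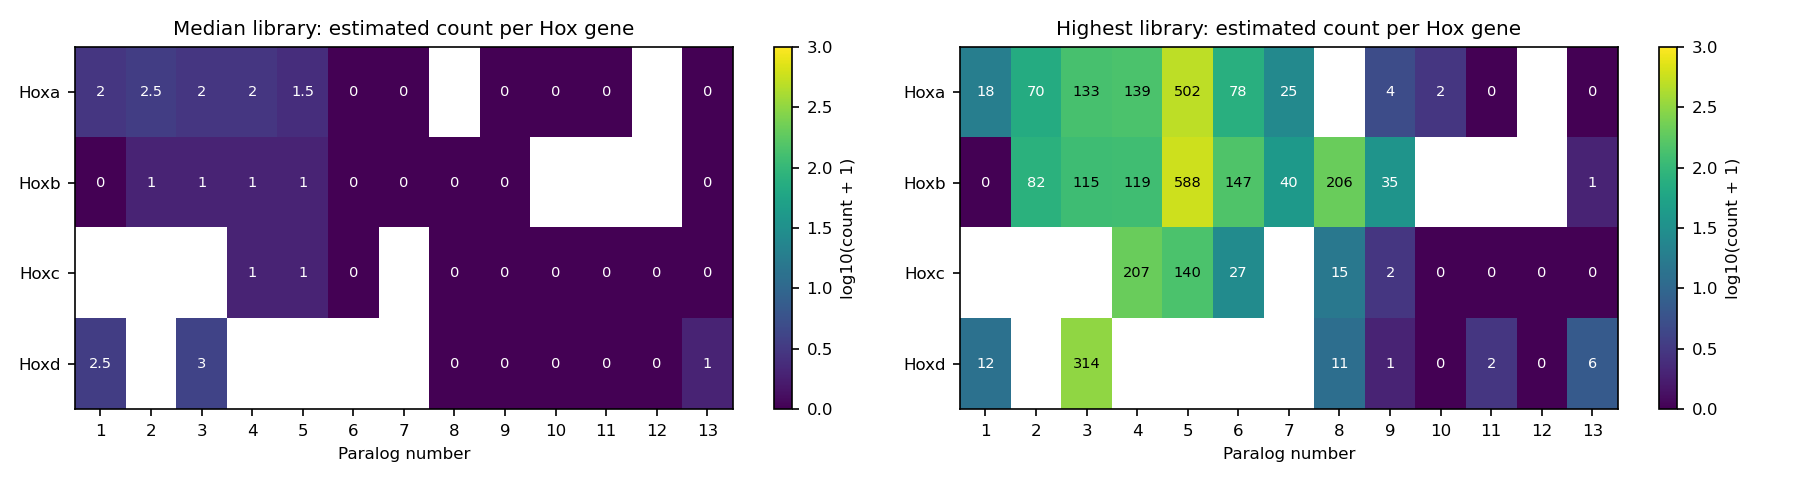
Estimated counts of the 38 Hox genes by cluster (rows) and paralog number (columns), in the median library (left) and in the highest library of each gene (right). Colour is log10(count + 1) and blank squares hold no member; medians do not exceed 3 counts, while the highest libraries reach 588 for Hoxb5 and 502 for Hoxa5 and 0 for 9 genes.

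The Hox counts followed the paralog order. Paralogs 1 to 4, of the hindbrain, held 5734 counts, paralogs 5 to 9 held 4250 and paralogs 10 to 13, of the posterior trunk and limbs, 112. Hoxa5 had 502 and 352 counts in the first 2 libraries (7.53 and 5.36 FPKM) and a median of 1.5 counts over all libraries. Hoxb5 had 588 and 468 counts there (5.89 and 4.76 FPKM), Hoxd3 314 and 257 (4.05 and 3.48 FPKM), Hoxc4 207 and 173, and Hoxb8 206 and 137. In Q92 female 2 at 10 months, Hoxd3 had 115 counts but Hoxa5 only 34, and paralogs 5 to 9 made up 21.1% of its Hox counts against 59.1% and 56.2% in the first 2.

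Q92 female 3 at 6 months had a Hox profile of its own. It held 350 Hox counts, of which 69.7% were from paralogs 5 to 9, and was the highest library for Hoxb9 (35 counts), Hoxa7 (25), Hoxc8 (15) and Hoxd8 (11). Its Hoxb8 count was 55, below only the 2 libraries above. Its brainstem markers summed to 14.5 CPM and ranked 16th, and its choroid plexus markers to 225 CPM, so neither stood near the highest. The library of Q20 female 1 at 6 months was the reverse: its brainstem markers had rank 3 at 36.5 CPM, with the highest counts of the noradrenergic genes Dbh (178) and Slc6a2 (329), while it held 204 Hox counts, 13.7% from paralogs 5 to 9.

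The first question was whether any member rises or falls with CAG length. Slopes were fitted per 100 CAG over the 32 knock-in libraries of each age, and 19 members were tested. No member was called at either age by edgeR's quasi-likelihood test at an adjusted p under 0.05 over all genes, where 0.406% of 16741 genes were called at 6 months and 1.16% of 16747 at 10 months. Unadjusted p-values under 0.05 were reached by 5 members at 6 months and 1 at 10 months. With DESeq2, 1 member passed at 6 months (Six5) and 0 at 10 months, and limma on log2 FPKM gave 0 at both. The median slope of the tested members was −0.02 at 6 months and −0.05 at 10 months, against −0.01 and −0.00 for all genes.

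**Figure D3:**
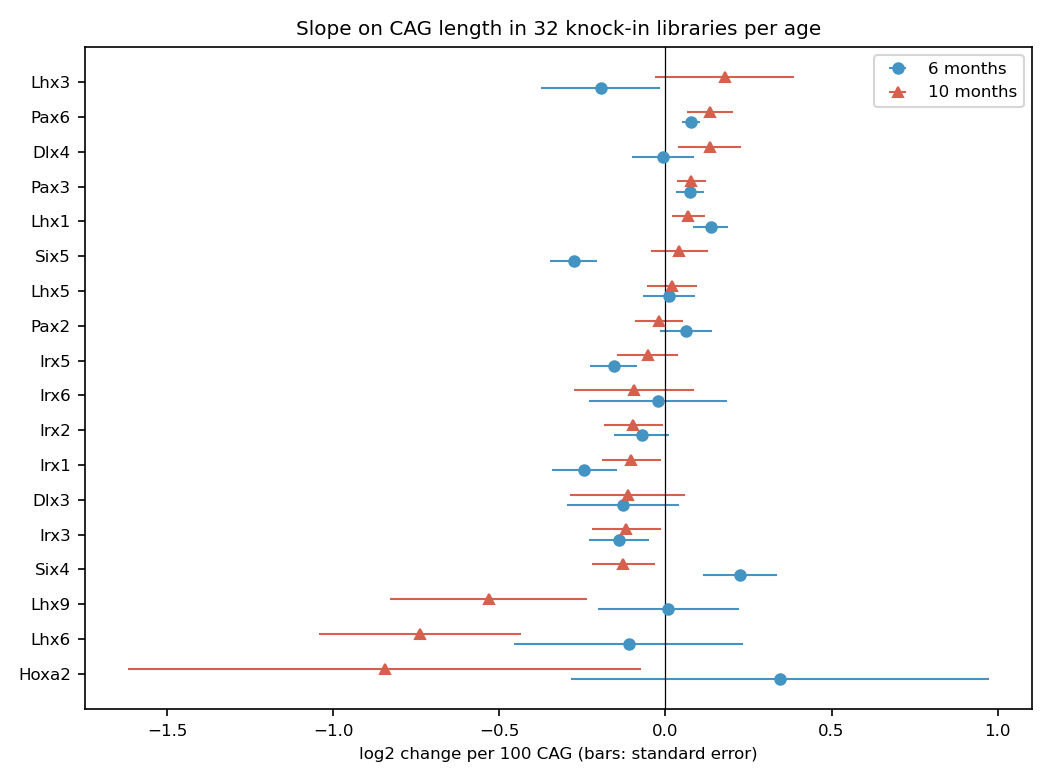
Slopes of 18 of the 19 tested members on CAG length, as log2 change per 100 CAG with standard errors, at 6 months (circles) and 10 months (triangles), 32 knock-in libraries per age. No slope was called; that of Six5 was −0.28 at 6 months and 0.04 at 10 months, and that of Pax6 0.08 and 0.13.

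Six5 (chromosome 7, 19094594 to 19098549) had the smallest p at 6 months. Its FPKM ran from 0.805 to 1.14 with a median of 0.9996 in Q20, from 0.754 to 1.08 (0.869) in Q50, from 0.672 to 0.926 (0.812) in Q92 and from 0.559 to 0.890 (0.757) in Q140. Medians fell in the order of CAG length, but neighbouring groups overlapped and the wild types of the Q50 cages, at 0.582 to 0.991 (0.742), were as low as Q140. The slope was −0.28 ± 0.07 (SE, edgeR adjusted p = 0.0624). It passed in 6 of 43 alternatives, among them DESeq2 (adjusted p = 0.0299), log2 of the CAG length (0.0455) and the fit without Q140 female 4 (0.0151), with p between 0.0151 and 0.714 over all 43. Choroid plexus markers moved in the same direction in these libraries: 14 of 15 had an unadjusted p under 0.05 and a median slope of −1.86, though 0 passed adjustment by edgeR. Their summed level at 6 months ran from 212 to 3122 CPM with a median of 1321 in Q20 and from 159 to 762.5 with a median of 180 in Q140. With the choroid plexus score as a covariate the Six5 slope was −0.19 ± 0.08 (adjusted p = 0.433). In the score fits over all libraries, given below, Six5 was called with the meninges score but not with the choroid plexus score. The part of these tissues in the Six5 slope was not tested. At 10 months the Six5 slope was 0.04 ± 0.09 (adjusted p = 0.920), and whether the ages differ was not tested.

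Lhx6 had the smallest p at 10 months. Its FPKM was 0.0684 to 0.158 in Q20 (7 to 17 counts), 0.0269 to 0.300 in Q50, 0.0089 to 0.162 in Q92 and 0.0381 to 0.108 in Q140 (3 to 10 counts). The slope was −0.74 ± 0.30 (edgeR adjusted p = 0.318). The Q140 and Q20 libraries overlapped, and the wild types of the Q50 cages, at 0.0368 to 0.105 FPKM, were as low as Q140.

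Pax6 leaned upward with CAG length at both ages. At 10 months its FPKM lay between 44.8 and 49.3 in Q20 (47.6 ± 1.42, SD, n = 8), 36.6 and 49.0 in Q50 (45.3 ± 3.92), 23.5 and 51.1 in Q92 (43.7 ± 8.59) and 51.3 and 55.8 in Q140 (53.5 ± 1.66). Every Q140 library lay above every Q20, Q50 and Q92 library, while the wild types reached 52.7 and 53.0. The slope was 0.13 ± 0.07 (edgeR adjusted p = 0.475) and the Q140 minus Q20 difference 0.17 ± 0.07 (adjusted p = 0.246). Neither passed, and 1 library decided this. Without Q92 female 2, the lowest in Pax6, the slope was 0.15 ± 0.04 (edgeR adjusted p = 0.0219) and the difference 0.17 ± 0.04 (adjusted p = 0.00887). Q92 female 2 is in neither group of the difference, whose value stayed at 0.17. It acts there through the estimate of the spread that the 48 libraries share.

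That library was also the lowest in granule neuron markers, with 2771 CPM, and the highest in meningeal markers, with 758 CPM. With the brainstem marker level as a covariate, the Pax6 slope at 10 months was 0.07 ± 0.05 and the Q140 minus Q20 difference 0.15 ± 0.05 (adjusted p = 0.519 and 0.0889). At 6 months Pax6 was 48.2 to 56.6 FPKM in Q20 and 54.4 to 58.7 in Q140, which overlapped, and its slope was 0.08 ± 0.03 (adjusted p = 0.119). Without Q140 female 4 it passed there (adjusted p = 0.0355), together with Six5, Lhx1 (0.17 ± 0.05, adjusted p = 0.0230) and Irx1 (−0.29 ± 0.10, adjusted p = 0.0390).

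In the other families the member with the smallest p at 6 months was Lhx1 with 0.14 ± 0.05 (edgeR adjusted p = 0.131), Irx1 with −0.24 ± 0.10 (0.136), Dlx3 with −0.13 ± 0.17 (0.624) and Hoxa2, the only Hox gene tested in this fit, with 0.34 ± 0.63 (0.731). At 10 months Dlx4 had 0.13 ± 0.09 (adjusted p = 0.653), Six4 −0.13 ± 0.09 (0.679), Irx1 −0.10 ± 0.09 (0.739) and Hoxa2 −0.84 ± 0.77 (0.766). The standard error of Hoxa2 shows what these counts could not resolve. Pathway partners gave no calls in edgeR's CAG trend either. At both ages it called 0 of 9 TALE cofactors of Hox proteins, 0 of 9 LIM and 0 of 6 sine oculis cofactors. It also called 0 of 26 genes in a list named Polycomb here. That list joins Polycomb proteins, which hold Hox genes silent, with the H3K27 demethylases Kdm6a and Kdm6b, which do not have that role. Unadjusted p-values under 0.05 were reached by 3, 3, 5 and 5 genes of these lists at 6 months and by 2, 2, 2 and 3 at 10 months, in the same order. Between single CAG lengths 1 Polycomb gene was called, Ring1 in Q92 against Q20 at 10 months (−0.26 ± 0.06, edgeR adjusted p = 0.0385). Oligodendrocyte markers did fall with CAG length at 10 months in 3 of 5 genes, among them Mobp (−0.48 ± 0.09) and Mbp (−0.38 ± 0.09; edgeR adjusted p = 0.00208 and 0.0224), and their part in the member slopes was not tested.

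Pairwise comparisons tested 22 members each and called 0 in all 8 by edgeR, by DESeq2 and by limma. In Q140 against Q20, 5 members had an unadjusted p under 0.05 at 6 months and 2 at 10 months, where 0.147% and 2.08% of genes were called. The smallest adjusted p-values were those of Six5 at 6 months (−0.33 ± 0.10, adjusted p = 0.111) and Lhx6 at 10 months (−0.97 ± 0.37, 0.178). Without Q140 female 4, Six5 passed at 6 months (−0.37 ± 0.10, adjusted p = 0.0412). In Q92 against Q20, 2 and 0 members had an unadjusted p under 0.05, with 0.0118% and 0.224% of genes called.

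Against wild types of their own cages, Q20 had 3 and 1 such members and Q50 2 and 5 at 6 and 10 months, with 0.0118% and 0.0118% of genes called for Q20 and 0.0118% and 0.0531% for Q50. The largest of these differences came from the Hox-rich libraries. Hoxd3 was −2.22 ± 0.84 in Q20 at 6 months (adjusted p = 0.679), where wild types ran from 0 to 4.05 FPKM with a median of 0.0813, and 2.52 ± 0.86 in Q50 at 10 months (adjusted p = 0.911), where Q50 ran from 0.0355 to 3.48 with a median of 0.108. In both comparisons the groups overlapped and 1 library stood apart. With no low-count filter Hoxb5 was called in Q50 at 10 months (4.52 ± 0.91, edgeR adjusted p = 0.0290), the group with the library of 468 Hoxb5 counts.

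The second question was whether members rise with brainstem tissue, which was read only through neuron markers. A score, the mean log2 CPM of the 19 brainstem neuron markers, was fitted across the 96 libraries beside the 24 groups of genotype, cage, sex and age, so that it reads differences within groups. It called 12 of 24 tested members (50.0%), 10 higher and 2 lower, while 27.8% of all 17384 genes were called, 14.5% higher and 13.3% lower. Low Hox genes and Lhx2 entered the fit only through the libraries where they were high, so this count is a description and not support. Without the filter, 32 of 64 members were called and 15.6% of genes. Of the 19 markers, which form the score, 11 were tested and 9 rose with it. The serotonergic genes Tph2 and Fev were not among the 9. Their highest counts, 35 and 13, lay in Q20 male 4 at 10 months and Q20 female 2 at 6 months, ranked 88 and 91 in score. The score therefore does not stand for every type of brainstem neuron.

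**Figure D4:**
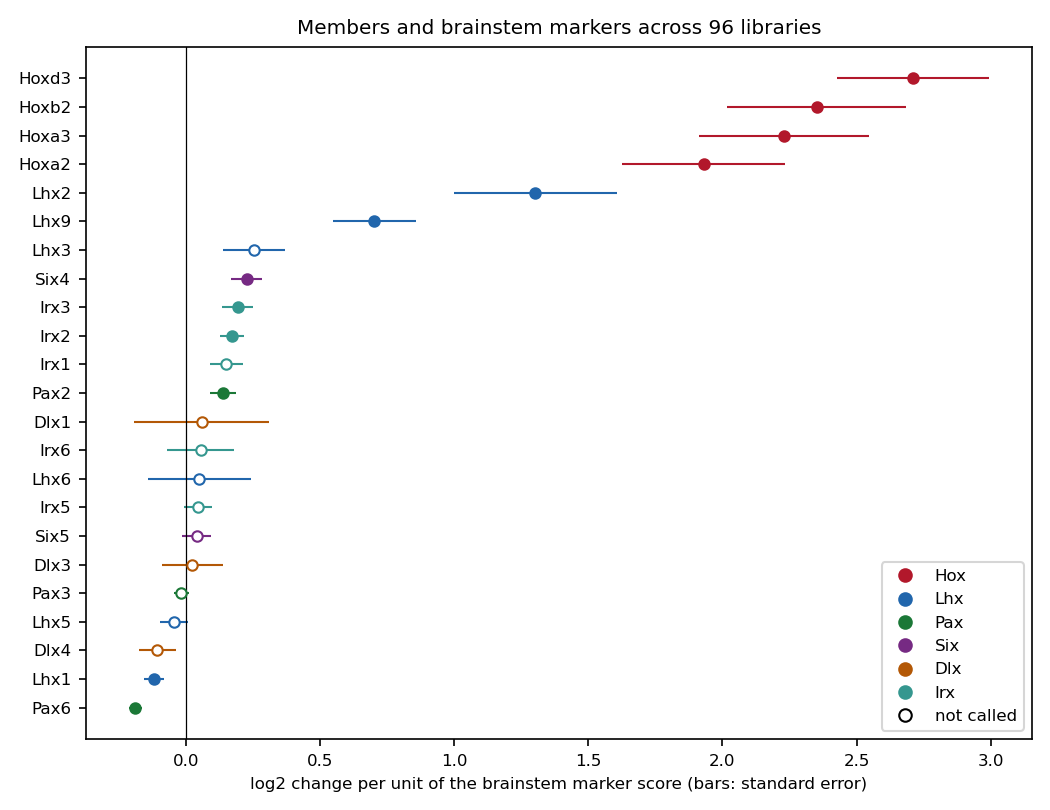
Change of 23 of the 24 tested members per unit of the brainstem marker score, as log2 with standard errors, in a fit over 96 libraries with 24 groups. Filled points were called at an edgeR adjusted p under 0.05; the 4 Hox genes lie between 1.93 and 2.71, and Pax6 at −0.19 is the lowest.

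All 4 tested Hox genes rose with the score. Hoxd3 (chromosome 2, 74711927 to 74748442) rose by 2.71 ± 0.28 per unit (edgeR adjusted p = 2.53e-12), Hoxb2 by 2.35 ± 0.33 (4.41e-08), Hoxa3 by 2.23 ± 0.32 (4.66e-08) and Hoxa2, the most anterior Hox gene of the hindbrain, by 1.93 ± 0.30 (6.33e-07). Hoxa2 had at least 10 counts in 29 libraries, Hoxa3 in 20, Hoxd3 in 19 and Hoxb2 in 12. These 4 kept their call in every alternative that gave a value, 16 for Hoxa2, Hoxa3 and Hoxd3 and 14 for Hoxb2. Hoxb2 did not pass the low-count filter within either age alone, so those fits could not test it. As low Hox genes enter through the libraries where they are high, these calls are a description and not support. Without the 2 libraries richest in Hox counts, which also had the 2 highest scores, the values were 2.47 for Hoxd3, 2.35 for Hoxb2, 2.09 for Hoxa3 and 1.82 for Hoxa2. Within ages, Hoxd3 rose by 2.43 at 6 months and 2.97 at 10 months.

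**Figure D5:**
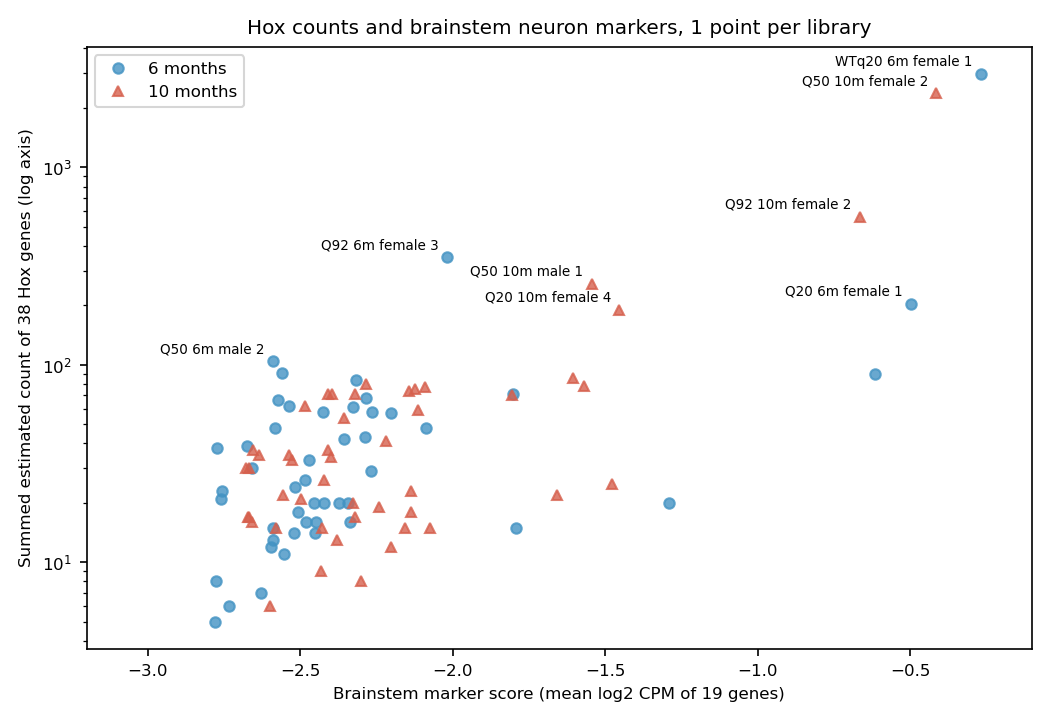
Summed estimated counts of the 38 Hox genes (log axis) against the brainstem marker score of the 96 libraries, 1 point each, circles at 6 months and triangles at 10 months; the 8 libraries over 100 counts are named, WTq20 standing for wild types of the Q20 cages. The 2 highest in Hox counts, 2958 and 2367, are also the 2 highest in score, while Q92 female 3 and Q50 male 2 at 6 months lie apart with 350 and 104 counts at lower scores.

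Outside the Hox family, Lhx2 and Lhx9 rose most. Lhx2, a forebrain and limb factor, rose by 1.30 ± 0.30 (edgeR adjusted p = 0.000572) and Lhx9, a factor of rhombic lip derivatives, by 0.70 ± 0.15 (0.000251). Lhx2 had a median of 3 counts and reached 10 counts in 19 libraries, with 37 and 63 in the 2 libraries with the highest scores. As for the low Hox genes, its call is a description and not support. Lhx9 lost its call in 1 of 16 alternatives and Lhx2 in 3, among them the fit without the 2 highest libraries (0.95, adjusted p = 0.0986). Smaller rises were those of Six4 (0.23 ± 0.06), Irx3 (0.19 ± 0.06), Irx2 (0.17 ± 0.04) and Pax2 (0.14 ± 0.05), with adjusted p = 0.00185, 0.00882, 0.00225 and 0.0222. These 4 lost their call in 6, 4, 6 and 9 of 16 alternatives.

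Pax6 and Lhx1 moved the other way. Pax6 fell by 0.19 ± 0.02 per unit (edgeR adjusted p = 3.36e-09) and kept its call in all 16 alternatives, by 0.11 at 6 months and 0.27 at 10 months. Its FPKM was 40.2 and 36.6 in the 2 libraries with the highest scores, below the medians of their groups, 53.0 and 45.8. Lhx1 fell by 0.12 ± 0.04 (adjusted p = 0.00950) and lost its call in 5 of 16 alternatives. Granule markers fell with the score in 8 of 8 genes and Purkinje markers in 3 of 8, where 13.3% of all genes fell. Oligodendrocyte markers rose in 5 of 5, deep nuclei markers in 3 of 4 and the forebrain marker Drd1 in 1 of 4 tested. Of all genes 14.5% rose. The part of these markers in the member values was not tested.

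The calls rested partly on a few libraries. At 6 months alone 7 of 22 members were called (4.57% of genes) and at 10 months 11 of 22 (42.8%). Without 5 libraries high in members, 7 of 24 were called, and the background fell to 3.06%. Those 7 were Hoxa2, Hoxa3, Hoxb2, Hoxd3, Lhx2, Lhx9 and Pax6. A score from cholinergic and motor neuron markers alone called 12 of 24 members (27.3% of genes). One from monoaminergic markers alone called 10 of 24 (23.4%).

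Cofactors and neighbouring homeobox genes were read in the same fit, where 27.8% of all genes were called, 14.5% higher and 13.3% lower. Counts of called genes in these lists were not tested against that share. Of the 9 TALE cofactors, which bind DNA with Hox proteins, Meis2 (1.16 ± 0.12, edgeR adjusted p = 3.16e-12) and Pbx3 (0.13 ± 0.02, 1.35e-06) rose and Meis1 (−0.13 ± 0.03, 0.000319) fell. Of 9 LIM cofactors, Ldb2 (0.73 ± 0.09, 1.51e-10), Lmo3 (0.50 ± 0.09) and Lmo4 (0.11 ± 0.04) rose and Ldb1 (−0.10 ± 0.02) fell. Eya4 (0.45 ± 0.08) and Dach2 (0.34 ± 0.08) rose among 6 sine oculis cofactors, and 9 of 26 Polycomb genes fell and 0 rose, with the smallest p for Cbx7 (−0.13 ± 0.02) and the largest fall for Pcgf2 (−0.18 ± 0.03). Other homeobox genes of the hindbrain were tested in 16 of 26 cases, of which 7 rose and 3 fell, among them Lmx1b (1.59 ± 0.16, 1.11e-12) and En2, a cerebellar factor (−0.19 ± 0.03, 6.37e-09).

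Scores of choroid plexus and meninges were fitted in the same way. The choroid plexus score called 2 of 24 members (8.33%) against 5.57% of genes (4.53% higher, 1.04% lower), Hoxa3 (0.49 ± 0.13, edgeR adjusted p = 0.00654) and Hoxb2 (0.46 ± 0.13, 0.0187), which lost their call in 4 of 14 and 7 of 12 alternatives. The meninges score called 6 of 24 (25%) against 24.5% of genes (11.3% higher, 13.2% lower), a share near the background. Six5 (0.38 ± 0.08, edgeR adjusted p = 0.000229), Lhx5 (0.29 ± 0.08, 0.00384), Irx5 (0.25 ± 0.08, 0.0232) and Hoxb2 (2.15 ± 0.79, 0.0371) rose, and Pax6 fell by 0.18 ± 0.05 (0.00441). These lost their call in 1 of 14 alternatives for Six5, 3 of 14 for Lhx5, 5 of 14 for Irx5, 8 of 12 for Hoxb2 and 4 of 14 for Pax6, which was at −0.05 (adjusted p = 0.921) at 6 months alone. In the fit over all 96 libraries granule markers fell with the meninges score in 6 of 8 genes.

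Some members outside the Hox family were high in single libraries. Q50 male 2 at 10 months held 96 counts of Dlx1, 18 of Dlx2, 31 of Dlx6, 118 of Six3, the forebrain and eye factor, and 32 of Lhx6, the highest of all libraries for each except Six3, against medians of 5, 0, 0, 0 and 8. It held no Hox gene at 10 counts. Wild-type female 4 of the Q50 cages at 10 months held the most Six3, 134 counts, and the most Lhx9, 482 counts against a median of 34, with 70 Hox counts. Six3 was at most 8 counts in the other 94 libraries. Choroid plexus markers were high in both, 5125 and 6251 CPM, and the part of other tissue in these counts was not tested. Pax8, a factor of the midbrain-hindbrain boundary, thyroid and kidney, had 147 and 127 counts in the 2 Hox-rich libraries and 56 in Q92 female 2 at 10 months, against a median of 1.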

How the data were processed

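Expected (estimated) counts and FPKM per gene were deposited by the authors for 96 cerebellum RNA-seq libraries, and CASAVA 1.8.2 is the only tool in the submitters' processing notes. Aligner, quantifier, build, annotation and strand setting were not given in the sources used here. Symbols and coordinates came from GENCODE M21 (GRCm38), which named 37607 of 39179 IDs, and promoters from RefSeq (GRCm38.p6). Of the deposited estimated counts 81.6% were whole, and all were rounded. Members and gene lists were chosen with earlier results of these data known.

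Counts were tested with edgeR 4.0.16 (R 4.3.3): TMM factors, a low-count filter (minimum count 10, minimum total 15), quasi-likelihood F-tests, 2-sided, Benjamini-Hochberg adjustment over all genes, and calls at an adjusted p under 0.05. Standard errors are the log2 difference divided by the root of F. Within an age, 48 libraries entered with the genotype and cage groups and sex. CAG slopes used 32 knock-in libraries and sex. Scores are mean log2 CPM (prior count 2) of markers that include no member. Alternatives were DESeq2 1.42.0, limma 3.58.1 on log2(FPKM + 0.1), other filters and libraries left out. Members named with values were those called in any fit, the 3 with the highest mean FPKM and the smallest trend p in each family, and those beside the filter. Of other lists up to 3 called genes per comparison were named. Further members and genes, such as those high in single libraries, were chosen after their values were seen. Fits were tested on simulated data. Library totals were 29957797 to 39477325, and intervals and floors cover counting error only. Replicate numbers did not pair samples, and no libraries were duplicates. Values of some genes are not reported here.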

Additional observations from a re-analysis of the deposited data

Results flagged for a closer look

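Within each family and each group of 8 libraries, the summed level was searched for 1 library far from the rest, by the gap to its neighbour over the whole range. Of 72 such tests 15 stood out, where chance gives about 1 in 20 for normally spread values and independent tests. Hox sums were skewed and some libraries stood out in several families, so 15 of 72 cannot be weighed against that rate.

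For Hox genes these were wild-type female 1 of the Q20 cages at 6 months, with 83.3 CPM against 2.74 in the next library, and Q50 female 2 at 10 months, with 65.6 against 8.29. Q92 female 2 at 10 months had 15.1 CPM against 2.36, Q92 female 3 at 6 months 10.5 against 1.93, Q20 female 1 at 6 months 5.84 against 2.04 and Q20 female 4 at 10 months 5.37 against 2.10.

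Q92 female 2 at 10 months was also apart in Pax genes, low at 75.4 CPM against 116, and in Irx genes, high at 21.8 against 17.7. Lhx genes were low in Q92 female 3 at 6 months, at 70.2 CPM against 84.6, and high in wild-type female 2 of the Q50 cages at 10 months, at 106 against 89.0. Sine oculis family genes were high in wild-type female 4 of the Q50 cages at 10 months, at 13.2 CPM against 8.39.

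Dlx genes were high in Q50 male 2 at 10 months, at 6.37 CPM against 2.25, in wild-type male 3 of the Q50 cages at 6 months, at 2.68 against 1.99, and in wild-type female 2 of those cages at 10 months, at 2.66 against 2.06. They were low in wild-type female 1 of the Q20 cages at 6 months, at 0.817 against 1.67. The causes were not tested.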

How the results depend on the processing

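Over the 10 genotype and CAG comparisons, 295 of 308 alternatives gave 0 called members, as reported. No called value changed sign, but some uncalled ones did, such as the Six5 trend at 10 months, which ran from −0.13 to 0.10. The 3 alternatives chosen after seeing the data left out the 2 libraries richest in Hox, 5 libraries high in members, or libraries set apart by principal component 1. For the CAG trend at 6 months, 1 member was called with DESeq2 and 1 with log2 CAG length, and 0 to 4 with 1 library left out. At 10 months 1 was called without 5 libraries high in members and 1 without Q92 female 2, the library set apart by principal component 1, for the trend and for Q140 against Q20 alike, and 0 to 1 with 1 library left out. In Q140 against Q20 at 6 months leaving out 1 library gave 0 to 1, and in Q50 against wild type at 10 months 1 was called with no low-count filter.

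For the brainstem score the count of 12 (27.8% of all genes called) became 32 with no filter (15.6% of genes). It was 7 at 6 months (4.57%), 7 without 5 libraries (3.06%) and 7 to 17 without each replicate number (8.47% to 29.6%). For choroid plexus the count of 2 (5.57% of genes) became 4 with no filter (3.3%). It was 0 at 6 months (2.18%), 1 at 10 months (3.42%) and 1 without the 2 highest scores (4.76%). It was 1 without the 2 libraries richest in Hox (4.94%) and 1 without 5 libraries (3.7%). Without each replicate number it was 0 to 3 (2.37% to 4.44%). For meninges the count of 6 (24.5% of genes) became 1 at 6 months (1.44%) and 2 without the 2 highest scores (3.92%). Without each replicate number it was 2 to 6 (2.1% to 36.4%). But it was 9 at 10 months (36.3%), 9 with no filter (12.3%) and 7 without the 2 libraries richest in Hox (25.1%). The causes were not tested. With the replicate number as a block, 11, 2 and 5 members were called for brainstem, choroid plexus and meninges. The shares of all genes called there were 24.6%, 5.18% and 17.6%. In the 10 comparisons the same block gave 0 members. The replicate numbers gave no sign of pairing, with a mean correlation of 0.020 between same-numbered libraries and 75 of 240 pairs over 0.1. The 51 untested members, at low counts, limit what can be seen of most Hox genes.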

Other observations

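Cofactors of the sine oculis family were read against the meninges score. Eya2 rose by 0.61 ± 0.08 per unit (edgeR adjusted p = 3.21e-08) and Eya1 by 0.22 ± 0.06 (0.00836), while Eya3 was lower (−0.15 ± 0.04, 0.00623), out of 6 tested. Eya proteins are partners of these factors in organ formation. In the same fit 15 of 26 genes of the Polycomb list fell and 0 rose, where 13.2% of all genes fell and 11.3% rose. The 15 included Ezh2, the histone methyltransferase (−0.25 ± 0.06, 0.00145). They also included the demethylases Kdm6a (−0.23 ± 0.07, 0.0182) and Kdm6b (−0.18 ± 0.07, 0.0498). Without the 2 libraries highest in this score, the share of all genes called went from 24.5% to 3.92%. One of the highest, Q92 female 2 at 10 months, had the lowest summed Polycomb level, 1252 CPM against a median of 1711, and the lowest granule marker level, 2771 CPM. Their part in the Polycomb values was not tested. The choroid plexus score rose with 2 other homeobox genes of hindbrain and roof plate, Lmx1a (0.32 ± 0.03, 2.57e-12) and Otx2 (0.15 ± 0.01, 2.98e-18), and Otx2 is itself one of its markers.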
